A study of Homo sapiens with 9 samples.

Results

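The 58 genes described here act in G2 phase and mitosis, and they were taken from the 60649 genes of the count table by their symbols. All 58 were found and all 58 had enough reads to be tested, among 14274 genes tested. They were followed in RNA sequencing of MDA-MB-231, a human cell line long established from a triple-negative breast cancer, in 9 libraries of 3 groups. The control group carried the vector pLKO-GFP (genotype GFP-PLKO in the labels), and the others carried a lentiviral short hairpin RNA against AHR, the aryl hydrocarbon receptor, labelled shAHR#2 or shAHR#3, with 3 libraries in each group. All 9 libraries carry the same treatment label, proliferation. According to the study's methods, transduced cells were selected with puromycin and the survivors were kept as a population, so a group is not a single clone. The methods number the hairpins differently from the labels, so which target sequence belongs to shAHR#2 and which to shAHR#3 is not settled here. Nothing in the labels says that the replicates came from separate cultures. The p-values therefore measure the spread between these libraries, which may be technical.

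Before a cell divides, CDK1 is paired with cyclin A2 and the B-type cyclins, held back by the kinases WEE1 and PKMYT1, and released by phosphatases of the CDC25 family. The active kinase then drives chromosome condensation, spindle assembly by motor proteins, and attachment of chromosomes at kinetochores, which the spindle assembly checkpoint watches over. Once the checkpoint is satisfied, CDC20 and the anaphase-promoting complex mark securin and cyclin B1 for destruction, sister chromatids part and the cell is cleaved. Most of these genes are transcribed late in the cycle, under the MuvB core complex with B-Myb (MYBL2) and FOXM1, and they are the usual proliferation markers of breast tumours. In bulk RNA, fewer cells in G2 and mitosis and less RNA of these genes per cell cannot be told apart.

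Promoters of this gene class are known for a cell cycle genes homology region (CHR), written TTTGAA or TTCGAA, and for CCAAT boxes. Windows from 250 bases before to 50 bases after a transcription start were available from RefSeq (GRCh38.p14) for 49 of the 58 genes, 63 windows in all, and for 35116 windows over all genes. TTTGAA or TTCGAA, searched on both strands, was found in 61.9% of the windows of the mitotic genes and in 16.4% of all windows. TTTGAA alone was found in 58.7% against 15.2%, and TTCGAA, which is its own reverse complement, in 4.76% against 1.45%. CCAAT on either strand was found in 69.8% against 34.6%, and a window with both CCAAT and a CHR sequence made up 49.2% against 6.38%. Matches of different motifs were counted separately also where they overlapped. A match is a description of the letters in the window and not a shown binding site. The 7 sequences below, read 5′ to 3′ on the strand of the gene, are shown because they belong to genes that fell with both hairpins (CDC25C, CDK1, MKI67, NCAPG), rose with both or with shAHR#3 (ESPL1, PLK1) or moved in opposite directions (CDC25B). Capitals mark 1 CHR match for each gene, whose first base lay at position -30 from the annotated start for CDC25C, -69 for CDK1, -29 for MKI67, -35 for NCAPG, -31 for ESPL1, -29 for PLK1 and -38 for CDC25B. The windows of CDK1 held 3 more matches, at -161, -13 and 9 from the annotated transcription start of the window each lies in. That of MKI67 held 1 more, at -47. The CDC25C match also lay at 43 from another annotated start.
CDC25C, chr5:138331817-138331846, minus strand: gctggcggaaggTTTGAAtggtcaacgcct
CDK1, chr10:60778397-60778426, plus strand: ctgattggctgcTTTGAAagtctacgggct
MKI67, chr10:128126435-128126464, minus strand: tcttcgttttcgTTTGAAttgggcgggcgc
NCAPG, chr4:17810932-17810961, plus strand: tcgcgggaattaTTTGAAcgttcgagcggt
ESPL1, chr12:53268256-53268285, plus strand: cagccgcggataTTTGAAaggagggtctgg
PLK1, chr16:23678848-23678877, plus strand: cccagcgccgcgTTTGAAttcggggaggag
CDC25B, chr20:3796260-3796289, plus strand: ctgctgttatttTTCGAAtatataaggagg

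Total counts ran from 15991396 to 20374460 per library, and the mitotic genes were counted with 44 to 27948 reads each. Levels are given as CPM, counts normalised to the library total after TMM scaling. AHR itself was at 114, 118 and 121 CPM in the pLKO-GFP libraries, 42.5, 40.4 and 41.9 with shAHR#2 and 46.3, 52.1 and 44.5 with shAHR#3. Its log2 fold change was -1.50 (SE 0.048, adjusted p = 1.05e-25) with shAHR#2 and -1.31 (SE 0.046, adjusted p = 4.95e-24) with shAHR#3, where SE is the standard error and p is adjusted over all genes tested, so both hairpin groups lay below the control in every library. AHR was 0.19 higher on the log2 scale with shAHR#3 than with shAHR#2 (adjusted p = 0.00283), a call that was lost without shAHR#3 replicate 2 (0.13, adjusted p = 0.0626). The line's markers vimentin (VIM, 2634 CPM in the control mean), CD44 (811 CPM), KRT18 (304 CPM) and KRT8 (284 CPM) were abundant. ESR1 and PGR, the hormone receptors that triple-negative cells lack, were at 0.0357 and 0 CPM, and CDH1 was at 0.91 CPM.

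The summed level of the 58 genes was 12970, 12940 and 12770 CPM in the pLKO-GFP libraries, 11510, 11400 and 11420 with shAHR#2 and 12600, 12580 and 12330 with shAHR#3. The means and SDs over 3 libraries were 12890 ± 109.7 CPM for pLKO-GFP, 11440 ± 59.84 CPM for shAHR#2 and 12500 ± 152 CPM for shAHR#3. The 3 groups did not overlap, and the shAHR#2 libraries were the lowest. Per kilobase of exon, the highest control levels were those of TOP2A (187.8 CPM per kb), TPX2 (172.5), CCNB1 (151.9), UBE2C (131.7) and ANLN (121.0), and the lowest were those of HMMR (5.61), PKMYT1 (4.62) and NUSAP1 (0.865). The list's marker CCNB1 was thus among its most abundant members, while the other marker, CDC25C, was at 8.48 CPM per kb. The median coefficient of variation between replicates was 2.54% for pLKO-GFP, 2.01% for shAHR#2 and 2.49% for shAHR#3, and NUSAP1 varied most in each group. Reads could also be shared with genes on the opposite strand if strand was not used in counting, which the sources used here do not give. Such genes cover 31.9% of the exon bases of PKMYT1, 22.0% of SMC4, 15.9% of FOXM1, 12.8% of PLK1, 9.24% of CCNA2 and 8.80% of CDC25C.

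**Figure D1:**
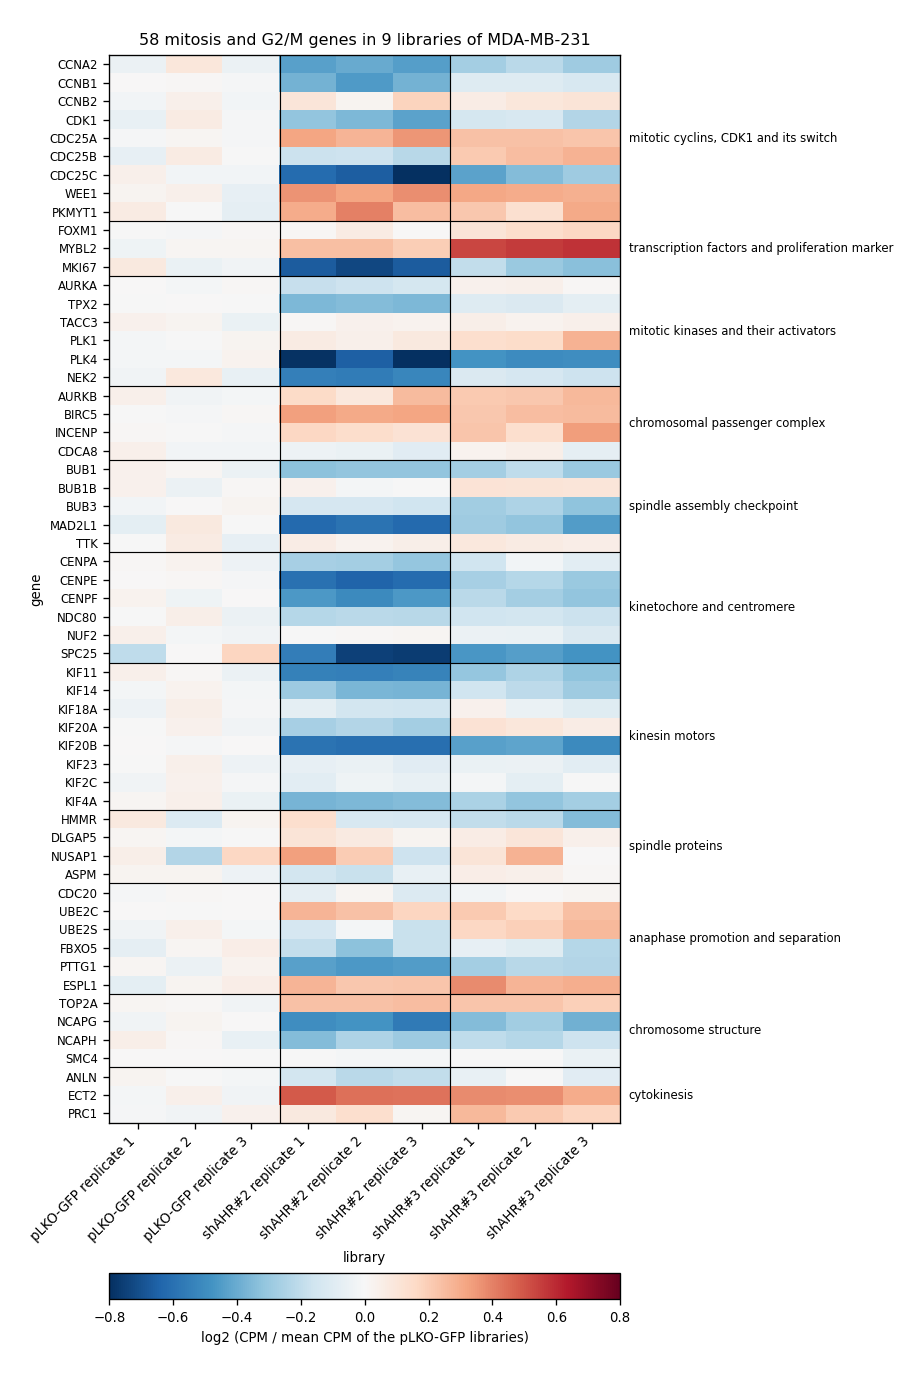
Level of each of the 58 genes (rows, grouped by role) in each of the 9 libraries (columns), as the log2 ratio of its CPM to the mean CPM of the 3 pLKO-GFP libraries, with blue below and red above the control mean. Blue and red rows stand side by side within several roles, the shAHR#2 columns are the darkest blue for genes such as PLK4, MKI67 and CDC25C, and MYBL2 is darkest red with shAHR#3.

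The first comparison asks how these genes stood in cells with shAHR#2 against cells with the control vector. The genes split in both directions, with more falls than rises: 32 of 58 fell and 13 rose by edgeR's quasi-likelihood test at an adjusted p under 0.05. The falls were 55.2% of the list against 33.2% of all genes tested, and the rises 22.4% against 32.6%. PLK4, CDC25C, MKI67, SPC25, CENPE, MAD2L1 and KIF20B fell most, and ECT2, WEE1, PKMYT1, BIRC5 and CDC25A rose most. The median log2 fold change was -0.13 (quartiles -0.36 and 0.06), against -0.0032 over all genes tested. The median moved to 0.01 once the median of the 50 tested genes on each side of each member was subtracted, an adjustment described with the chromosomes below.

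With shAHR#3 there were again changes in both directions: 24 of 58 genes fell and 18 rose. The falls were 41.4% of the list against 27.5% of all genes tested, and the rises 31.0% against 26.9%. PLK4, SPC25, KIF20B, CDC25C and MAD2L1 fell most, and MYBL2, ECT2, ESPL1 and WEE1 rose most. The median log2 fold change was -0.03 (quartiles -0.25 and 0.18), against -1e-04 over all genes tested. It changed sign, to 0.02 and 0.05, once the median of the other genes on the chromosome or of the 50 tested genes on each side was subtracted, and was -0.0179 without pLKO-GFP replicate 2, against -0.0348 with all libraries. This comparison and the first share the pLKO-GFP libraries, so their values are set side by side and are not independent.

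The third comparison sets shAHR#3 against shAHR#2. No control library enters the difference itself, but the control libraries were part of the same fit. Here the genes leaned one way: 28 of 58 were higher with shAHR#3 and 4 were lower. The higher genes were 48.3% of the list against 21.9% of all genes tested, and the lower ones 6.90% against 20.4%. CDC25B, MKI67, NEK2, CDC25C, CENPE and KIF20A differed most in the upward direction, and the 4 lower genes were HMMR, BUB3, ECT2 and BIRC5. The median difference was 0.10 on the log2 scale (quartiles 0.01 and 0.21), against 0.0068 over all genes tested. Of the 4 lower genes, the calls of HMMR and BIRC5 were lost when single libraries were left out, as given with each gene. CDC25B, KIF20A and UBE2S were past the threshold in opposite directions with the hairpins, each lower with shAHR#2 and higher with shAHR#3 than the control. Of these 3, CDC25B kept both calls when single libraries were left out. The rise of KIF20A with shAHR#3 was lost without pLKO-GFP replicate 3, and the fall of UBE2S with shAHR#2 without pLKO-GFP replicate 2 or shAHR#2 replicate 1 or 3.

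**Figure D2:**
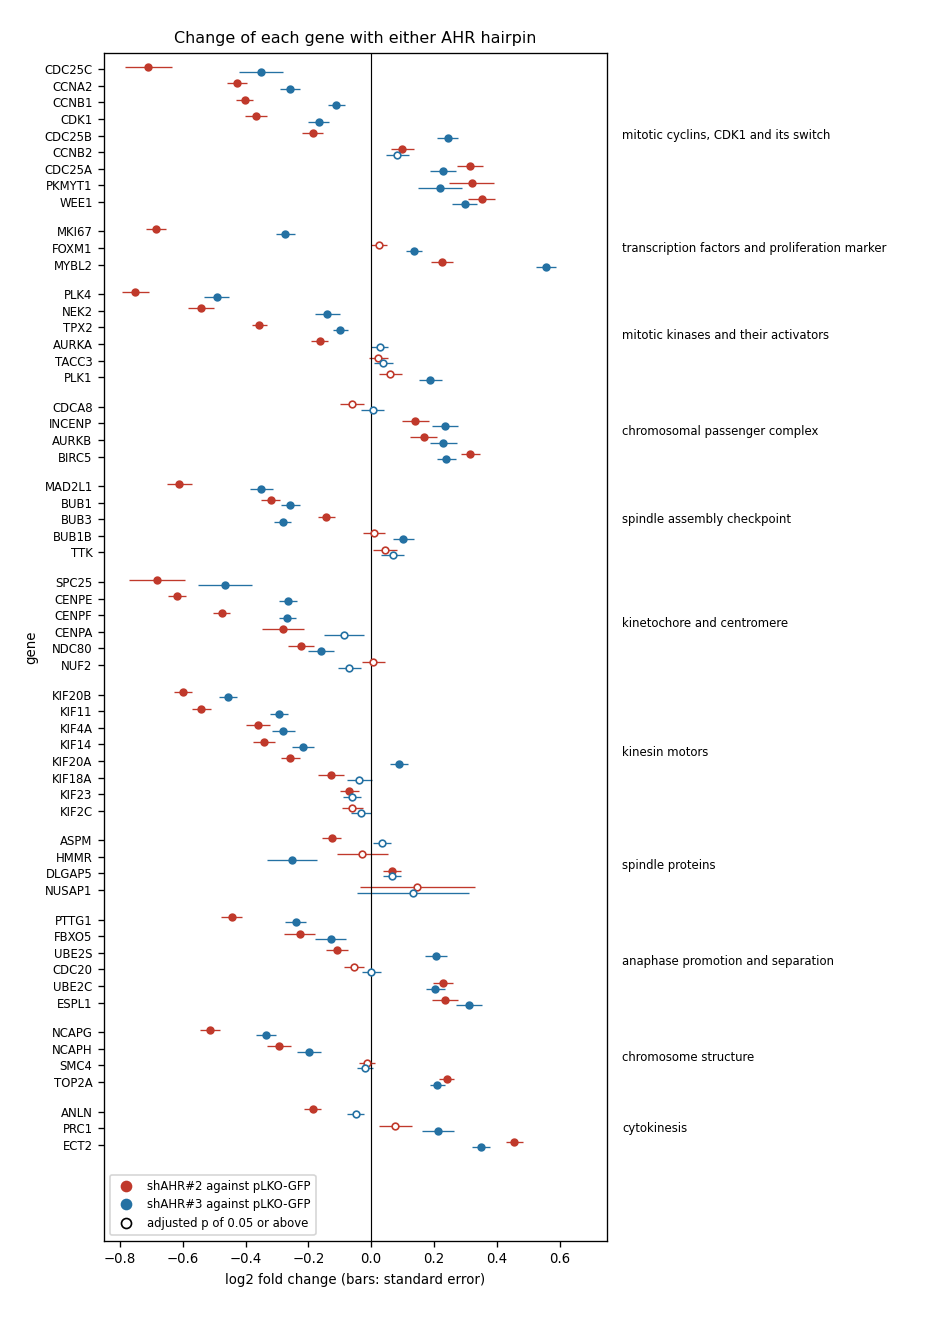
Log2 fold change of each of the 58 genes (rows, grouped by role) against pLKO-GFP on the horizontal axis, in red for shAHR#2 and blue for shAHR#3, with bars of 1 standard error and open points where the adjusted p was 0.05 or above. Values run from -0.75 (PLK4) to 0.46 (ECT2) with shAHR#2 and from -0.49 (PLK4) to 0.56 (MYBL2) with shAHR#3.

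The genes are given by role, in groups of 3 to 9, and the counts of each role stand against falls in 33.2% and rises in 32.6% of all genes tested with shAHR#2, and 27.5% and 26.9% with shAHR#3. Among the 9 genes of CDK1 and its switch, 4 rose and 5 fell with shAHR#2, and 4 rose and 4 fell with shAHR#3. The kinase, its cyclins A2 and B1 and CDC25C fell with both hairpins, while the inhibitory kinases WEE1 and PKMYT1 and the phosphatase CDC25A rose with both. CCNB1 (cyclin B1; chromosome 5, 69167135 to 69178245, plus strand) was at 370.2, 371 and 367 CPM in the pLKO-GFP libraries, 284, 270.5 and 284 with shAHR#2 and 344, 344 and 338 with shAHR#3. Its 3 groups did not overlap and stood in the order control, shAHR#3, shAHR#2. The log2 fold change was -0.40 (SE 0.027, adjusted p = 7.59e-16) with shAHR#2 and -0.11 (SE 0.026, adjusted p = 4.76e-04) with shAHR#3, and shAHR#3 stood above shAHR#2 by 0.29 (SE 0.027, adjusted p = 2.05e-11). CDC25C (chromosome 5, 138285269 to 138338355, minus strand), the CDC25 phosphatase most tied to mitotic entry, was at 29.1, 27.8 and 27.9 CPM in the pLKO-GFP libraries, 18.4, 17.9 and 15.4 with shAHR#2 and 21.0, 22.2 and 23.2 with shAHR#3. Its groups stood in the same order without overlap. On the log2 scale it changed by -0.71 (SE 0.076, adjusted p = 1.86e-10) and -0.35 (SE 0.071, adjusted p = 6.52e-05) with the hairpins in turn, and by 0.36 (SE 0.078, adjusted p = 2.37e-04) between them.

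CDK1, the catalytic subunit itself, was at 214, 234 and 222 CPM in the pLKO-GFP libraries, 179.6, 174 and 166 with shAHR#2 and 203, 204 and 189.5 with shAHR#3. No library with a hairpin reached the lowest control library, and the groups with hairpins did not overlap either. Its log2 fold changes were -0.37 (SE 0.035, adjusted p = 1.40e-11) and -0.17 (SE 0.034, adjusted p = 7.52e-05), with a difference of 0.20 (SE 0.035, adjusted p = 1.53e-05) between the hairpins. CCNA2 (cyclin A2) fell with both, with log2 fold changes of -0.43 and -0.26. Phosphatase CDC25B was at 162, 178 and 169 CPM in the pLKO-GFP libraries, 150.3, 151 and 146 with shAHR#2 and 196, 201 and 205 with shAHR#3, so that its shAHR#2 libraries lay below and its shAHR#3 libraries above every control library. It fell with shAHR#2, with a log2 fold change of -0.19 (SE 0.034, adjusted p = 1.01e-05), rose with shAHR#3 by 0.24 (SE 0.033, adjusted p = 5.32e-08), and differed between the hairpins by 0.43 (SE 0.033, adjusted p = 1.81e-13). The rises of WEE1 were 0.35 and 0.30, those of PKMYT1 0.32 and 0.22 and those of CDC25A 0.31 and 0.23, and none of these 3 genes differed between the hairpins past the threshold (adjusted p = 0.302, 0.256 and 0.0899). CCNB2 (cyclin B2) rose by 0.10 (SE 0.037, adjusted p = 0.0193) with shAHR#2, where its groups overlapped and the call was lost without pLKO-GFP replicate 1 or 3 or shAHR#2 replicate 3 (adjusted p from 0.0638 to 0.181), and had a log2 fold change of 0.08 (SE 0.037, adjusted p = 0.0551) with shAHR#3.

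**Figure D3:**
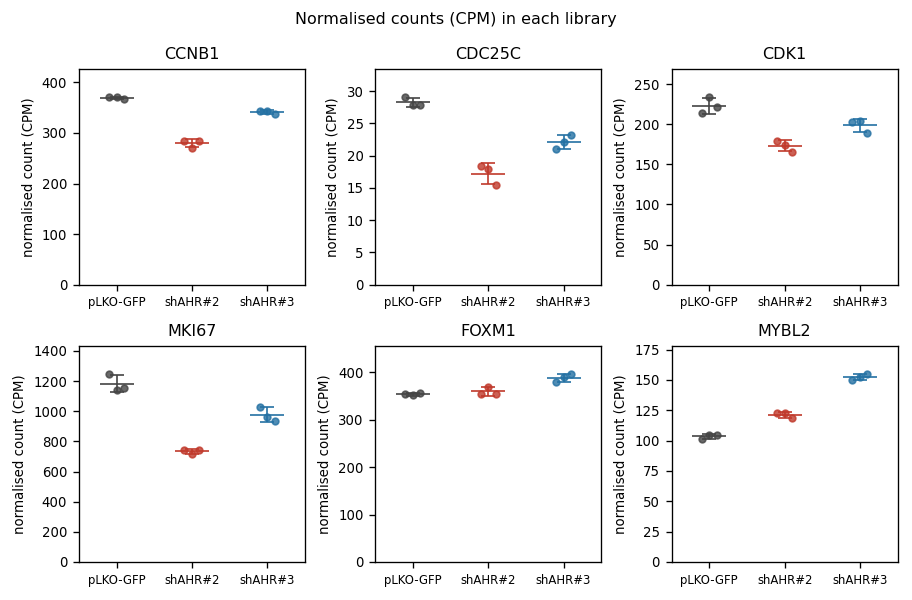
Normalised counts (CPM) of 6 genes in each library (points), with the group mean (long line) and 1 SD (short bars), for pLKO-GFP, shAHR#2 and shAHR#3, on axes that start at 0. CCNB1, CDC25C, CDK1 and MKI67 are lowest with shAHR#2 and intermediate with shAHR#3, FOXM1 is above the control with shAHR#3, and MYBL2 rises from the control through shAHR#2 to shAHR#3.

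Of the transcription factors that drive this programme, MYBL2 rose with both hairpins and FOXM1 with shAHR#3, while the proliferation marker MKI67 fell with both. FOXM1, which binds with the MuvB complex in G2, was at 354, 351 and 356 CPM in the pLKO-GFP libraries, 355, 369.9 and 354 with shAHR#2 and 379, 391 and 396 with shAHR#3. Its shAHR#2 libraries overlapped the control and its shAHR#3 libraries lay above both. The log2 fold change was 0.02 (SE 0.027, adjusted p = 0.432) with shAHR#2 and 0.14 (SE 0.027, adjusted p = 3.75e-05) with shAHR#3, with 0.11 (SE 0.027, adjusted p = 7.41e-04) between them. MYBL2, which encodes B-Myb and brings the MuvB complex to its promoters in S phase, was at 101, 105 and 105 CPM in the pLKO-GFP libraries, 122, 122 and 118 with shAHR#2 and 149.7, 152 and 155 with shAHR#3, in 3 groups without overlap. It rose on the log2 scale by 0.23 (SE 0.035, adjusted p = 4.80e-07) and 0.56 (SE 0.033, adjusted p = 5.79e-17), the latter the highest rise among the 58 genes, and was higher with shAHR#3 than with shAHR#2 by 0.33 (SE 0.033, adjusted p = 1.21e-10). MKI67, which encodes the proliferation antigen Ki-67, was at 1246, 1141 and 1157 CPM in the pLKO-GFP libraries, 744, 714 and 744 with shAHR#2 and 1031, 963 and 937 with shAHR#3. Its groups were separate, with the shAHR#2 libraries far below the other 6. The log2 fold changes were -0.69 (SE 0.031, adjusted p = 6.85e-21) and -0.27 (SE 0.031, adjusted p = 1.32e-09), and the hairpins differed by 0.41 (SE 0.031, adjusted p = 9.14e-14).

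Of 6 mitotic kinases and activators, 0 rose and 4 fell with shAHR#2, and 1 rose and 3 fell with shAHR#3. All but TACC3, 5 of the 6, were higher with shAHR#3 than with shAHR#2, as were 48.3% of the 58 genes and 21.9% of all genes tested. PLK4, the kinase of centriole duplication, was at 97.4, 97.7 and 101 CPM in the pLKO-GFP libraries, 57.1, 62.6 and 56.3 with shAHR#2 and 70.8, 69.8 and 70.0 with shAHR#3, and its groups were separate. It had the lowest log2 fold change of all 58 genes with both hairpins, -0.75 (SE 0.042, adjusted p = 4.37e-18) and -0.49 (SE 0.040, adjusted p = 4.40e-13), and a difference of 0.26 (SE 0.044, adjusted p = 6.36e-06) between them. NEK2, a kinase of centrosome separation, was at 91.2, 98.8 and 89.2 CPM in the pLKO-GFP libraries, 63.8, 63.2 and 64.8 with shAHR#2 and 85.9, 84.7 and 82.8 with shAHR#3, with the shAHR#2 libraries well below the rest and the shAHR#3 libraries just under the lowest control library. It changed on the log2 scale by -0.54 (SE 0.042, adjusted p = 5.66e-14) with shAHR#2 and by -0.14 (SE 0.040, adjusted p = 0.00303) with shAHR#3, a call that was lost without pLKO-GFP replicate 2 (-0.10, adjusted p = 0.0642), and the hairpins differed by 0.40 (SE 0.043, adjusted p = 5.38e-10). TPX2, which activates Aurora A on the spindle, fell with both (-0.36 and -0.10). Aurora A itself (AURKA) fell with shAHR#2, with a log2 fold change of -0.16 (SE 0.028, adjusted p = 2.61e-06), and had a log2 fold change of 0.03 (SE 0.027, adjusted p = 0.406) with shAHR#3. PLK1, the polo-like kinase of mitotic entry and progression, had a log2 fold change of 0.06 (SE 0.036, adjusted p = 0.138) with shAHR#2 and rose with shAHR#3, with a log2 fold change of 0.19 (SE 0.035, adjusted p = 2.32e-05). Its difference between the hairpins (0.13) was lost without shAHR#3 replicate 3 (0.08, adjusted p = 0.0594). TACC3, a spindle substrate of Aurora A, passed the threshold in none of the 3 comparisons.

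The chromosomal passenger complex, which corrects faulty attachments and moves to the midzone in anaphase, had 3 of 4 members that rose with each hairpin, AURKB, BIRC5 and INCENP, and 0 that fell, where 32.6% of all genes tested rose with shAHR#2 and 26.9% with shAHR#3. BIRC5 (survivin) was at 142, 141 and 142 CPM in the pLKO-GFP libraries, 178, 175 and 176 with shAHR#2 and 165, 168 and 169 with shAHR#3, with little spread within each group and no overlap. It rose on the log2 scale by 0.32 (SE 0.031, adjusted p = 1.80e-11) and 0.24 (SE 0.030, adjusted p = 1.85e-08). The small difference between the hairpins, -0.08 (SE 0.030, adjusted p = 0.0359), was lost when shAHR#2 replicate 1, 2 or 3 or shAHR#3 replicate 1 or 2 was left out (adjusted p from 0.0571 to 0.142). The kinase AURKB (Aurora B) rose by 0.17 and 0.23, and its scaffold INCENP by 0.14 and 0.23. Borealin (CDCA8) had log2 fold changes of -0.06 (SE 0.038, adjusted p = 0.156) and 0.00 (SE 0.037, adjusted p = 0.933). Scaling by total counts took INCENP below the threshold with shAHR#2 (0.07, adjusted p = 0.132).

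Of the 5 checkpoint genes, 3 fell with each hairpin. MAD2L1 (MAD2), which holds CDC20 in the inhibitory checkpoint complex, was at 171, 190.0 and 179 CPM in the pLKO-GFP libraries, 117, 119.8 and 117 with shAHR#2 and 148, 145 and 132 with shAHR#3, in separate groups. On the log2 scale it changed by -0.61 (SE 0.039, adjusted p = 1.74e-16) and -0.35 (SE 0.038, adjusted p = 4.12e-10), and by 0.26 (SE 0.040, adjusted p = 1.01e-06) between the hairpins. BUB1, a kinase that recruits checkpoint proteins to kinetochores, had log2 fold changes of -0.32 and -0.26, and its partner BUB3 of -0.14 and -0.28. BUB3 was lower with shAHR#3 than with shAHR#2, with a log2 difference of -0.14 (SE 0.028, adjusted p = 8.24e-05). BUB1B (BubR1) had a log2 fold change of 0.01 (SE 0.035, adjusted p = 0.855) with shAHR#2 and rose with shAHR#3 by 0.10 (SE 0.034, adjusted p = 0.00995), a call lost without pLKO-GFP replicate 2 (0.08, adjusted p = 0.0800) and with total-count scaling. It was higher with shAHR#3 than with shAHR#2 by 0.09, which was lost without shAHR#2 replicate 2 or 3 or shAHR#3 replicate 1 or 2 (adjusted p from 0.0525 to 0.0817). TTK (MPS1), the kinase that starts checkpoint signalling, had log2 fold changes of 0.04 (SE 0.038, adjusted p = 0.303) and 0.07 (SE 0.037, adjusted p = 0.12).

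Of 6 kinetochore and centromere genes, 5 fell with shAHR#2 and 4 with shAHR#3, and 0 rose with either, where 33.2% and 27.5% of all genes tested fell. SPC25, a subunit of the NDC80 complex that holds microtubules, was the least counted of them, at 19.0, 21.9 and 24.7 CPM in the pLKO-GFP libraries, 14.9, 13.04 and 12.9 with shAHR#2 and 15.8, 16.1 and 15.7 with shAHR#3. The control libraries were spread from 19.0 to 24.7 CPM and still lay above every library with a hairpin. The log2 fold changes of SPC25 were -0.68 (SE 0.090, adjusted p = 2.16e-08) and -0.47 (SE 0.085, adjusted p = 1.45e-05), with 0.22 (SE 0.093, adjusted p = 0.0595) between the hairpins. CENPE, the kinetochore's own kinesin, was at 271, 271 and 268 CPM in the pLKO-GFP libraries, 178, 173 and 176 with shAHR#2 and 224, 230.2 and 219 with shAHR#3, and its groups were separate. It changed on the log2 scale by -0.62 (SE 0.029, adjusted p = 1.63e-20) and -0.27 (SE 0.028, adjusted p = 2.86e-10), and by 0.35 (SE 0.029, adjusted p = 1.03e-12) between them. CENPF and NDC80 fell with both hairpins, with log2 fold changes of -0.48 and -0.27 for CENPF and -0.22 and -0.16 for NDC80. NUF2, the partner of NDC80 in the same complex, had log2 fold changes of 0.01 (SE 0.038, adjusted p = 0.882) and -0.07 (SE 0.037, adjusted p = 0.11). CENPA, the histone variant that marks centromeres, fell with shAHR#2, with a log2 fold change of -0.28 (SE 0.066, adjusted p = 3.16e-04), and had a log2 fold change of -0.09 (SE 0.063, adjusted p = 0.253) with shAHR#3. Its difference between the hairpins (0.19) was lost without shAHR#3 replicate 2 (0.16, adjusted p = 0.0841), and 7.08% of its exon bases are shared with SLC35F6 on the same strand.

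Of 8 kinesin motors, 7 fell and 0 rose with shAHR#2, and 4 fell and 1 rose with shAHR#3. The falls were 87.5% and 50% of the motors, against 33.2% and 27.5% of all genes tested. KIF20B, a motor of cytokinesis, was at 282, 279 and 282 CPM in the pLKO-GFP libraries, 186, 185 and 185 with shAHR#2 and 208, 209 and 197 with shAHR#3, with shAHR#2 replicates almost equal and all groups separate. On the log2 scale it changed by -0.60 (SE 0.029, adjusted p = 5.22e-20) and -0.46 (SE 0.029, adjusted p = 2.41e-16), with 0.14 (SE 0.030, adjusted p = 1.32e-04) between the hairpins. KIF20A (chromosome 5), which carries the passenger complex to the midzone, was at 219, 225 and 216 CPM in the pLKO-GFP libraries, 183, 187 and 183 with shAHR#2 and 238, 235 and 229.7 with shAHR#3. The shAHR#2 libraries lay below and the shAHR#3 libraries above all control libraries. It fell with shAHR#2, with a log2 fold change of -0.26 (SE 0.030, adjusted p = 1.15e-09), and rose with shAHR#3, with a log2 fold change of 0.09 (SE 0.029, adjusted p = 0.00775), a rise that was lost without pLKO-GFP replicate 3 (0.07, adjusted p = 0.0565) and with total-count scaling (0.06, adjusted p = 0.0695). The hairpins differed by 0.35 (SE 0.029, adjusted p = 1.79e-12). KIF11 (Eg5), the motor of the bipolar spindle, fell with both hairpins (-0.54 and -0.29), as did the chromokinesin KIF4A (-0.36 and -0.28) and KIF14 (-0.34 and -0.22). KIF18A, which dampens chromosome oscillations, fell with shAHR#2, with a log2 fold change of -0.13 (SE 0.040, adjusted p = 0.00601), and had a log2 fold change of -0.04 (SE 0.039, adjusted p = 0.44) with shAHR#3, and the difference between the hairpins was 0.09 (SE 0.040, adjusted p = 0.0715). KIF23, a centralspindlin motor, fell with shAHR#2, with a log2 fold change of -0.07 (SE 0.030, adjusted p = 0.0421), which was lost without pLKO-GFP replicate 1 or 2, any shAHR#2 replicate or shAHR#3 replicate 1 (adjusted p from 0.0590 to 0.205). KIF2C, the microtubule depolymerase MCAK, had log2 fold changes of -0.06 and -0.03 and passed the threshold in neither.

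Of 4 spindle proteins, 1 rose and 1 fell with shAHR#2, and 0 rose and 1 fell with shAHR#3, shares of falls (25%) no higher than those of all genes. ASPM, a protein of the spindle poles, was at 340.3, 341 and 327 CPM in the pLKO-GFP libraries, 304, 297 and 323 with shAHR#2 and 348, 346 and 338 with shAHR#3. The shAHR#2 libraries were below the other 6, and the shAHR#3 libraries overlapped the control. It fell with shAHR#2, with a log2 fold change of -0.13 (SE 0.029, adjusted p = 2.89e-04), had a log2 fold change of 0.03 (SE 0.029, adjusted p = 0.323) with shAHR#3, and differed by 0.16 (SE 0.029, adjusted p = 2.09e-05) between the hairpins. HMMR (chromosome 5), a hyaluronan receptor that also sits on spindle microtubules, was at 23.3, 20.5 and 22.4 CPM in the pLKO-GFP libraries, 24.2, 20.2 and 20.1 with shAHR#2 and 19.2, 19.0 and 17.4 with shAHR#3. The shAHR#2 libraries overlapped the control and the shAHR#3 libraries lay below every other library. It had a log2 fold change of -0.03 (SE 0.080, adjusted p = 0.775) with shAHR#2, fell with shAHR#3, with a log2 fold change of -0.25 (SE 0.080, adjusted p = 0.0077), and differed by -0.22 (SE 0.082, adjusted p = 0.0257) between the hairpins, which was lost without shAHR#2 replicate 1 (-0.12, adjusted p = 0.311) or shAHR#3 replicate 3 (-0.18, adjusted p = 0.105). DLGAP5 (HURP) rose by 0.07 (SE 0.029, adjusted p = 0.0475) with shAHR#2, which was lost without any one pLKO-GFP library or shAHR#2 replicate 1 or 2 (adjusted p from 0.0538 to 0.213), and had a log2 fold change of 0.07 (SE 0.029, adjusted p = 0.05) with shAHR#3. NUSAP1 was at 3.22, 2.65 and 3.49 CPM in the pLKO-GFP libraries, 3.92, 3.6 and 2.78 with shAHR#2 and 3.34, 3.79 and 3.12 with shAHR#3 and passed no threshold. Its counts are uncertain, since 86.8% of its exon bases are shared with other annotated genes on the same strand.

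Among 6 genes of anaphase, 2 rose and 3 fell with shAHR#2, and 3 rose and 2 fell with shAHR#3. The protease separase rose and its inhibitor securin fell with both hairpins. PTTG1 (securin; chromosome 5) was at 141, 135 and 142 CPM in the pLKO-GFP libraries, 103, 101 and 102 with shAHR#2 and 115, 119.5 and 118 with shAHR#3, in separate groups. It changed on the log2 scale by -0.44 (SE 0.035, adjusted p = 5.19e-14) and -0.24 (SE 0.033, adjusted p = 1.14e-07), and by 0.20 (SE 0.035, adjusted p = 8.42e-06) between the hairpins. ESPL1 (separase) was at 68.8, 73.7 and 75.5 CPM in the pLKO-GFP libraries, 87.7, 84.4 and 84.7 with shAHR#2 and 94.4, 87.7 and 88.9 with shAHR#3, with every library with a hairpin above the control. The log2 fold changes were 0.24 (SE 0.042, adjusted p = 8.07e-06) and 0.31 (SE 0.041, adjusted p = 4.35e-08), and the hairpins did not differ past the threshold, with a log2 difference of 0.08 (SE 0.041, adjusted p = 0.139). UBE2S, the ubiquitin-conjugating enzyme that extends chains for the anaphase-promoting complex, was at 161, 169 and 162 CPM in the pLKO-GFP libraries, 149.5, 162 and 145 with shAHR#2 and 184, 188 and 196 with shAHR#3. The shAHR#2 libraries overlapped the control, and the shAHR#3 libraries lay above all others. It fell with shAHR#2, with a log2 fold change of -0.11 (SE 0.036, adjusted p = 0.0077), which was lost without pLKO-GFP replicate 2 (adjusted p = 0.0513) or shAHR#2 replicate 1 (adjusted p = 0.0546) or 3 (adjusted p = 0.101), rose with shAHR#3 by 0.21 (SE 0.035, adjusted p = 3.96e-06), and differed between the hairpins by 0.32 (SE 0.035, adjusted p = 1.90e-09). The chain-initiating enzyme UBE2C rose by 0.23 and 0.20. FBXO5 (EMI1), an inhibitor of the anaphase-promoting complex, fell with shAHR#2, with a log2 fold change of -0.23 (SE 0.051, adjusted p = 1.68e-04), and with shAHR#3, with a log2 fold change of -0.13 (SE 0.049, adjusted p = 0.0256), where its groups overlapped and the call was lost without pLKO-GFP replicate 2 or 3 or shAHR#3 replicate 3 (adjusted p from 0.0711 to 0.184). CDC20, the activator, had log2 fold changes of -0.05 (SE 0.032, adjusted p = 0.129) and 0.00 (SE 0.031, adjusted p = 0.982).

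Of 4 genes of chromosome structure, 1 rose and 2 fell with each hairpin. NCAPG, a condensin I subunit, was at 228, 236 and 233 CPM in the pLKO-GFP libraries, 165, 167 and 157 with shAHR#2 and 183, 192 and 178 with shAHR#3, and its groups were separate. On the log2 scale it changed by -0.51 (SE 0.032, adjusted p = 1.23e-16) and -0.34 (SE 0.031, adjusted p = 1.47e-11), with 0.18 (SE 0.033, adjusted p = 2.77e-05) between them, and 33.7% of its exon bases lie opposite LCORL. Its partner NCAPH fell with both hairpins (-0.29 and -0.20). TOP2A, the decatenating topoisomerase and the most abundant member per kilobase, was at 1212, 1203 and 1176 CPM in the pLKO-GFP libraries, 1407, 1410 and 1423 with shAHR#2 and 1393, 1395 and 1365 with shAHR#3. Every library with a hairpin stood above the control, and the log2 fold changes were 0.24 (SE 0.024, adjusted p = 4.74e-11) and 0.21 (SE 0.024, adjusted p = 2.01e-09). The condensin core ATPase SMC4 had log2 fold changes of -0.01 and -0.02 and passed the threshold in neither. Of 3 cytokinesis genes, 1 rose and 1 fell with shAHR#2, and 2 rose with shAHR#3. ECT2, the exchange factor that activates RhoA at the cleavage site, was at 327, 340.1 and 325 CPM in the pLKO-GFP libraries, 465, 448 and 446 with shAHR#2 and 430.2, 428 and 406 with shAHR#3. The libraries with a hairpin were all above the control, with the shAHR#2 libraries the highest. It rose on the log2 scale by 0.46 (SE 0.028, adjusted p = 6.70e-17) and 0.35 (SE 0.028, adjusted p = 2.35e-13), and was lower with shAHR#3 than with shAHR#2 by -0.11 (SE 0.028, adjusted p = 0.00189). Anillin (ANLN), a scaffold of the contractile ring, was at 737, 723 and 716 CPM in the pLKO-GFP libraries, 656, 624 and 632 with shAHR#2 and 696, 725 and 682 with shAHR#3, so that the shAHR#3 libraries overlapped the control. It changed on the log2 scale by -0.19 (SE 0.027, adjusted p = 1.26e-07) with shAHR#2, had a log2 fold change of -0.05 (SE 0.026, adjusted p = 0.115) with shAHR#3, and differed by 0.14 (SE 0.027, adjusted p = 5.43e-05) between the hairpins. PRC1, the midzone crosslinker, had a log2 fold change of 0.08 (SE 0.052, adjusted p = 0.195) and rose with shAHR#3 by 0.21 (SE 0.050, adjusted p = 4.31e-04), but 57.6% of its exon bases are shared with another annotated gene on the same strand, so its counts are uncertain. Its difference between the hairpins (0.14) was lost without shAHR#2 replicate 1 or 3 or shAHR#3 replicate 1 or 2 (adjusted p from 0.0553 to 0.130).

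Other genes tied to mitosis, 93 tested genes of 94 in lists written from general knowledge and chosen with earlier results known, also moved in both directions. The lists include 9 regulators of transcription, the MuvB core, E2F4, DP1 and the pocket proteins. With shAHR#2, 52 of the 93 genes fell and 22 rose (median -0.11), or 55.9% and 23.7% against 33.2% and 32.6% of all genes tested. With shAHR#3, 39 fell and 16 rose (median -0.07), or 41.9% and 17.2% against 27.5% and 26.9%. Between the hairpins 32 were higher with shAHR#3 and 17 lower (median 0.03), or 34.4% and 18.3% against 21.9% and 20.4%. Among these, other kinetochore genes fell in 19 of 26 with shAHR#2 (73.1%, median -0.49) and 14 of 26 with shAHR#3 (53.8%, median -0.24). CENPI, of the inner kinetochore, fell with both hairpins (-0.70 and -0.65, adjusted p = 2.27e-15 and 1.96e-14), while HJURP, the chaperone of CENPA, rose by 0.52 and 0.27 (adjusted p = 1.55e-17 and 2.01e-09).

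Subunits of the anaphase-promoting complex and its activator FZR1 split into 7 falls and 3 rises of 15 with shAHR#2 and 5 and 2 with shAHR#3. FZR1 was among the rises with both hairpins (0.34 and 0.23). The falls were 46.7% and 33.3% of these 15 genes, against 33.2% and 27.5% of all genes tested, so the share with shAHR#3 was near that of all genes. The other counts in this group of lists, each of 5 to 18 genes, stand against the same shares and against rises of 32.6% with shAHR#2 and 26.9% with shAHR#3. CDC23 (chromosome 5) fell with both hairpins (-1.09 and -0.49), and CDC27 rose by 0.69 and 0.37 (adjusted p from 2.14e-22 to 4.90e-11). Of 8 tested genes of the checkpoint and of cohesion protection, 5 fell and 1 rose with shAHR#2, and 4 fell and 0 rose with shAHR#3. SPDL1 (Spindly, chromosome 5), which brings dynein to kinetochores, fell with both hairpins (-0.52 and -0.35). The 5 other condensin subunits held 3 falls and 2 rises with shAHR#2 and 3 and 1 with shAHR#3, with NCAPD2 up by 0.33 and 0.31 and NCAPH2 at -0.41 and -0.21. Among 12 other genes of mitotic entry and exit, 4 rose and 3 fell with shAHR#2, and 4 rose and 4 fell with shAHR#3. MASTL (Greatwall), which keeps phosphatase PP2A off CDK1 substrates, rose by 0.66 and 0.37, and CHEK1, the S and G2 checkpoint kinase, fell with both hairpins (-0.17 and -0.29). Of 18 other spindle and cytokinesis genes, 9 fell and 7 rose with shAHR#2, and 4 fell and 7 rose with shAHR#3, with TROAP up by 0.39 and 0.46 and FAM83D at -0.36 and -0.35. Of the MuvB core, E2F4, its partner DP1 and the pocket proteins, 6 of 9 fell and 1 rose with shAHR#2, and 5 fell and 0 rose with shAHR#3. LIN9, a core subunit of MuvB, fell with both hairpins (-0.44 and -0.44, adjusted p = 5.36e-06 and 5.24e-06).

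The genes of the preceding phases were counted in the same way. Of 34 genes of DNA replication and the G1/S transition, 15 rose and 14 fell with shAHR#2 (median 0.08), or 44.1% and 41.2% against 32.6% and 33.2% of all genes tested. With shAHR#3, 9 rose and 15 fell (median -0.06), and the rises, 26.5%, were near the 26.9% of all genes while the falls were 44.1% against 27.5%. Between the hairpins, 7 were higher with shAHR#3 and 13 lower (median -0.06), or 20.6% and 38.2% against 21.9% and 20.4%, while the G2/M genes counted 28 and 4. CDK2 rose by 0.38 and 0.39, and CHAF1B, a subunit of the replication-coupled histone chaperone CAF-1, fell with both hairpins (-0.61 and -0.50). No test of the difference between the lists was made.

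**Figure D4:**
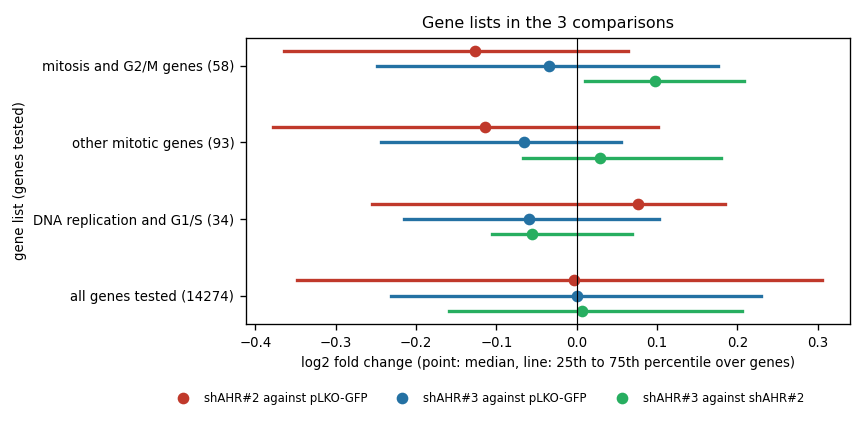
Median log2 fold change (point) and the range from the 25th to the 75th percentile over genes (line) for the mitosis and G2/M genes, the other mitotic genes, the DNA replication and G1/S genes and all genes tested, in the 3 comparisons. For the mitosis and G2/M genes the medians are -0.13 with shAHR#2, -0.03 with shAHR#3 and 0.10 between the hairpins, against values within 0.01 of 0 for all genes.

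The direction in which a member moved often went with that of the other genes on its chromosome, though not on every chromosome. All 5 members on chromosome 10 (BUB3, CDK1, KIF11, KIF20B and MKI67) fell with both hairpins. The other tested genes of that chromosome had medians of -0.32 with shAHR#2 and -0.15 with shAHR#3, and 55.6% and 45.1% of them fell. On chromosome 4, 5 of 6 members fell with both hairpins (CCNA2, CENPE, MAD2L1, NCAPG and PLK4, but not TACC3). The other genes there had medians of -0.30 and -0.22, and 60.5% and 54.3% of them fell. On chromosome 5, which holds CCNB1, CDC25C, HMMR, KIF20A and PTTG1, 4 of 5 members fell with each hairpin. The other genes there had medians of -0.48 and -0.26, and 72.2% and 59.3% of them fell. The count of 4 of 5 with shAHR#2 was thus near the share of the chromosome. The chromosome 17 members AURKB, BIRC5 and TOP2A all rose with both, beside medians of 0.13 and 0.12. Of all genes tested, 32.6% rose with shAHR#2 and 26.9% with shAHR#3. On chromosome 20 the other genes had medians of -0.32 and -0.15, and MYBL2 and UBE2C rose with both hairpins and CDC25B rose with shAHR#3. On chromosome 2, 4 of 4 members (BUB1, CENPA, NCAPH and SPC25) fell with shAHR#2 and 3 with shAHR#3. The other genes there had medians of only -0.07 and -0.10, and 37.4% and 36.7% of them fell. UBE2S, on chromosome 19, fell with shAHR#2 beside a median of 0.11.

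Across the 58 genes, the log2 fold change went with the median of the other tested genes on the same chromosome with a Spearman's rho of 0.671 with shAHR#2 and 0.628 with shAHR#3. Between the hairpins the rho was 0.453. These are descriptions over genes that share libraries and chromosomes, and genes are not independent replicates. After each member's value was reduced by that median, the list's median was -0.03 with shAHR#2 and 0.02 with shAHR#3. Reduced by the median of the 50 tested genes on each side, it was 0.01 and 0.05. Between the hairpins it stayed above 0, at 0.09 and 0.06, with 43 and 40 of 58 genes above 0. These adjustments were chosen after the data were seen. CCNB1 with shAHR#2, at -0.40, thus stood 0.08 above the median of the other chromosome 5 genes. CDC25C, the other marker, stayed below that median, at -0.23 with shAHR#2 and -0.09 with shAHR#3 after it was subtracted. No test was made of what remained.

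**Figure D5:**
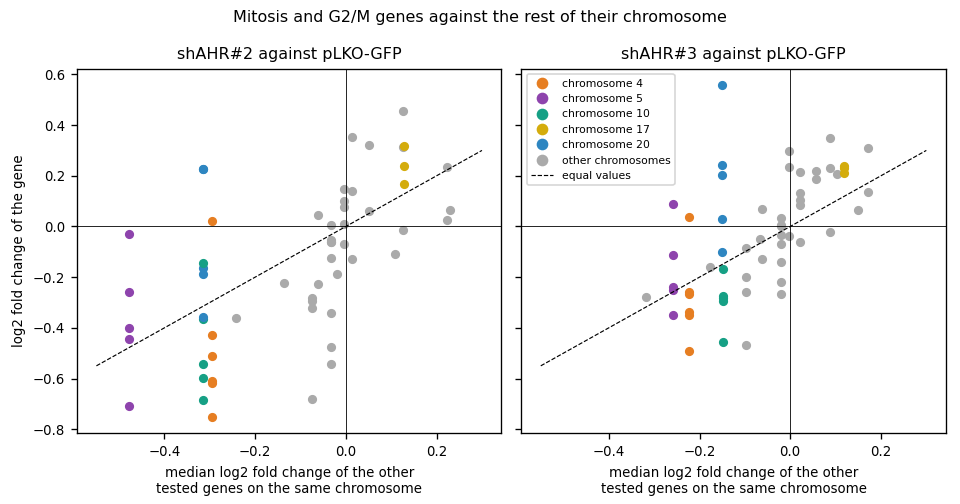
Log2 fold change of each of the 58 genes (vertical axis) against the median log2 fold change of the other tested genes on its chromosome (horizontal axis), for shAHR#2 (left) and shAHR#3 (right) against pLKO-GFP, with members on chromosomes 4, 5, 10, 17 and 20 in colour and a dashed line of equal values. Members on chromosomes 4, 5 and 10 sit at medians from -0.48 to -0.30 with shAHR#2 and mostly below 0, and those on chromosome 17 sit above 0.

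Base composition also went with the changes against the control. The members' transcripts ranged from 34.3% to 67.3% GC. Among the 29 members at or below the median of 42.6% GC, 21 fell and 3 rose with shAHR#2 and 18 fell and 2 rose with shAHR#3. Among the 29 above it, 11 fell and 10 rose with shAHR#2, and 6 fell and 16 rose with shAHR#3. Of all genes tested at or below that GC content, 36.7% fell and 33.1% rose with shAHR#2 and 35.5% and 22.8% with shAHR#3, and of those above it 31.8% and 32.4%, and 24.3% and 28.6%. The medians of the low and high groups were -0.23 and 0.01 with shAHR#2 and -0.16 and 0.10 with shAHR#3, while all genes split at the same GC content had medians of -0.02 and 0.01, and -0.06 and 0.02. After the median of tested genes of like GC content and transcript length was subtracted, the list's median was -0.10 with shAHR#2 and -0.0045 with shAHR#3. Between the hairpins, 14 members were higher with shAHR#3 and 3 lower in the low group (median 0.12), and 14 and 1 in the high group (median 0.09). Of all genes tested, 19.0% were higher and 27.4% lower at or below that GC content, and 23.1% and 17.5% above it. The part of GC content in single genes was not tested.

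Members with and without a CHR sequence in the promoter window were found among the genes that fell. Of 36 members with TTTGAA or TTCGAA in a window, 21 fell and 6 rose with shAHR#2 (median -0.16), and of 13 without, 8 fell and 3 rose (median -0.26), where 33.2% of all genes tested fell and 32.6% rose. With shAHR#3 the values were 16 and 8 (median -0.07) against 6 and 5 (median -0.03), where 27.5% of all genes tested fell and 26.9% rose. Between the hairpins, 17 with the sequence were higher with shAHR#3 and 2 lower (median 0.10), against 8 and 0 without (median 0.20). Of all genes tested, 21.9% were higher and 20.4% lower there. CCNB1, which fell with both hairpins, held neither sequence in its window. Of the genes whose sequences are printed above, CDC25C, CDK1, MKI67 and NCAPG fell with both hairpins, CDC25B fell with shAHR#2 and rose with shAHR#3, and ESPL1 rose with both. A window without a match says only that these letters are not in it.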

How the data were processed

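Per the labels, RNA from 9 MDA-MB-231 libraries (TruSeq Stranded mRNA kit) was sequenced from a single end on a NextSeq 500. STAR was used by the authors for alignment to GRCh38.p13, and they deposited raw counts of reads per gene. The submitters' processing notes also name FastQC, featureCounts and Subread. The annotation release and strand setting are not given in the sources used here.

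Counts were analysed anew with R 4.3.3 and edgeR 4.0.16 (filterByExpr, minimum count 10 and total 15; TMM; glmQLFit and glmQLFTest, 1 fit over 9 libraries without a block), with Benjamini-Hochberg adjustment over 14274 genes and a threshold of 0.05, after a test on simulated data. Standard errors were derived from the F statistic. The alternatives were DESeq2 1.42.0, the test the authors used, other scalings and filters, a stricter threshold, a replicate block, fitting only the groups compared and leaving out each library. Replicates differed beyond sampling noise (chi-square over degrees of freedom, 1.75 to 4.15), so none was counted as a copy. The common biological coefficient of variation was 2.96%.

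Members and lists were chosen with earlier results of these data known. Values in every library are given for CCNB1, CDC25C, CDK1, FOXM1, MYBL2 and MKI67, the largest change of each role in each comparison, chromosome 5 members and members called in opposite directions; up to 2 genes per other list are named, the largest rise and fall with both hairpins. TOP2A, NUSAP1 and other members were added after their values were seen. Gene positions are from GENCODE 44, in which 60507 of 60649 identifiers were found, and promoters from RefSeq.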

Additional observations from a re-analysis of the deposited data

Results flagged for a closer look

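CDC25B, KIF20A and UBE2S changed in opposite directions with the hairpins, and the direct test between the hairpins also passed the threshold. CDC25B was 0.43 higher on the log2 scale with shAHR#3 than with shAHR#2, KIF20A was 0.35 higher and UBE2S was 0.32 higher (adjusted p = 1.81e-13, 1.79e-12 and 1.90e-09; quasi-likelihood test of edgeR). The rise of KIF20A with shAHR#3 was lost without pLKO-GFP replicate 3 (adjusted p = 0.0565), and the fall of UBE2S with shAHR#2 was lost without pLKO-GFP replicate 2 or shAHR#2 replicate 1 or 3 (adjusted p from 0.0513 to 0.101), while CDC25B kept both calls. In each of the 3 genes, all 3 shAHR#3 libraries lay above all 3 shAHR#2 libraries. The other genes of chromosome 20 (CDC25B) had medians of -0.32 with shAHR#2 and -0.15 with shAHR#3, and those of chromosome 5 (KIF20A) -0.48 and -0.26. CDC25B and KIF20A stood above these medians with both hairpins. UBE2S stood below the median of chromosome 19 with shAHR#2 (0.11) and above it with shAHR#3 (0.10). These differences from the chromosome medians were not tested.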

How the results depend on the processing

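Against pLKO-GFP, 40 of 45 calls with shAHR#2 and 38 of 42 with shAHR#3 were kept under the 18 alternatives set for single genes, as were 26 of 32 between the hairpins. Of the genes not called, 4 of 13, 6 of 16 and 10 of 26 passed the threshold under at least 1 of them. Requiring also an absolute log2 fold change of 0.5 or more left 0 rises and 10 falls with shAHR#2, 1 rise and 0 falls with shAHR#3, and 0 in each direction between the hairpins. Scaling by total counts moved the medians to -0.1932 (shAHR#2), -0.0629 (shAHR#3) and 0.1358 (between the hairpins). The medians of all genes tested moved in the same directions, to -0.0695, -0.028 and 0.0451. This scaling gave 10 rises and 36 falls with shAHR#2, where 27% of all genes tested rose and 37.9% fell. With shAHR#3 it gave 16 and 27, against 24.3% and 30.3% of all genes tested. Between the hairpins it gave 38 higher genes, against 28 with TMM, and left 2 lower genes. Under that scaling, 26.1% of all genes tested were higher and 16.2% lower between the hairpins. It turned DLGAP5 with shAHR#2 to -0.001 (adjusted p = 0.981). Upper quartile factors gave a median of -0.1129 with shAHR#2, and leaving out the chromosome 5 members -0.1094. An adjusted p under 0.01 left 2 lower genes between the hairpins. The shares of all genes past that threshold and past the fold change limit were not counted. Of the adjustments chosen after seeing the data, subtracting the chromosome median gave -0.0348 (shAHR#2) and 0.0179 (shAHR#3), subtracting the 50 neighbours on each side 0.0136, 0.0493 and 0.063 (between the hairpins), and subtracting genes of like GC content and length -0.1033 and -0.0045. Without the members that share exons on the same strand the shAHR#2 median was -0.135. DESeq2 called 12 rises and 31 falls with shAHR#2, 18 and 23 with shAHR#3, and 26 and 4 between the hairpins. Of all genes tested it called 30.5% and 30.6%, 24.3% and 24.7%, and 19% and 18.4%. With single libraries left out, the counts ran from 11 to 13 rises and 30 to 32 falls (shAHR#2), 17 to 20 and 22 to 25 (shAHR#3), and 26 to 31 and 2 to 4 between the hairpins, the 2 without shAHR#2 replicate 1. Of all genes tested, 30.3% to 32.7% then rose and 30.6% to 33.2% fell with shAHR#2. The shares were 24.8% to 27% and 25% to 26.8% with shAHR#3, and 19.3% to 21.6% and 17.4% to 20.1% between the hairpins. The list's medians ran from -0.1342 to -0.1108, -0.0416 to -0.0179 and 0.0972 to 0.1147, and the AHR difference between the hairpins from 0.1252 to 0.242. Same-numbered libraries did not deviate together (correlations from -0.051 to 0.076), so the numbers were not taken as pairs. With a replicate block the calls were 13 and 32, 20 and 24, and 28 and 4. Of all genes tested they were 32.6% and 33.2%, 27.1% and 27.8%, and 22.1% and 20.7%. The smallest calls, 0.07 for DLGAP5 and -0.07 for KIF23 with shAHR#2, were among those lost when single libraries were left out. The cause of the shifts in the medians was not tested.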
